A study of Arabidopsis thaliana with 24 samples.

Results

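GLABRA2 (GL2, AT1G79840) encodes a homeodomain leucine zipper factor of the non-hair cells of the Arabidopsis root epidermis, and the genes described here are the 60 whose levels followed it most closely over 24 arrays. They were chosen by Pearson r to GL2, out of 12263 genes ranked, from a table of 21440 genes. A gene was ranked when its mean log2 level over the 24 arrays was above 6, and GL2 itself and 6 patterning genes (TTG2, TRY, CPC, MYB23, ETC1 and MYC1) were left out of the ranking. The choice used every array, so the levels of the 60 genes by line are a description and carry no test. Tests are given for genes that the same rule chose in arrays outside the comparison.

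The arrays measured RNA of sorted root epidermal cells from 8 mutant lines of Arabidopsis thaliana, with 3 biological replicates per line. In the order used below, the lines were labelled as carrying wer-1, myb23-1, gl3-1, egl3-1, cpc-1 with ttg2-1, cpc-1, try-82 or ttg2-1, and all of them as also carrying the WER::GFP reporter. Root tips of about 2 mm came from seedlings 5 days old, and their fluorescent protoplasts were collected by flow sorting. The WER promoter is active in the developing epidermis and in the lateral root cap, so the sorted cells held hair, non-hair and root cap cells, and wild type was not analysed here. In such mixed samples, fewer cells of a type and less RNA per cell cannot be told apart.

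As background, root epidermal cells become hair or non-hair cells by their position over the cortex. In the non-hair position the R2R3 MYB factors WEREWOLF (WER) and MYB23 join GL3 or EGL3, which are bHLH factors, and the WD40 protein TTG1 to switch on GL2, which holds back the bHLH genes of root hair growth. The same complex switches on the single-repeat MYB genes CAPRICE (CPC), TRIPTYCHON (TRY) and ETC1, whose products move to the neighbouring cells and block the complex there. Roots that lack WER carry hairs at most positions, and roots that lack CPC carry few hairs. TTG2, a WRKY factor, acts beside GL2 in trichomes and the seed coat.

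All values are log2 levels as deposited, with array medians from 6.47 to 6.91. The 3 arrays labelled cpc ttg2, the cpc array 3 and the egl3 array 2 stood apart, with mean correlations to the other arrays of 0.906 to 0.938, against 0.945 to 0.967 for the other 19. TTG2 averaged 8.25 ± 0.54 in the arrays labelled cpc ttg2, against 4.35 ± 0.44 in ttg2 (SD, n = 3 each), and from 5.65 to 7.26 in the other 6 lines, so the arrays labelled cpc ttg2 went against their label at this gene, and the label is quoted as such throughout. TRY was highest in the try arrays, at 10.71 ± 0.55, against 7.09 to 9.57 in the means of the other lines (SD, n = 3). Of the other mutated genes, WER averaged 10.99 in wer, MYB23 7.40 in myb23, EGL3 7.36 in egl3 and CPC 9.88 in cpc, none of them the lowest or highest line mean of its gene, and GL3 was not measured. A mutant allele need not lower its own transcript, so the levels of TRY, WER, MYB23, EGL3 and CPC do not settle the labels. For TTG2 the same allele, ttg2-1, is named in both labels. Its line mean was the lowest of all in ttg2 and the highest of all in the arrays labelled cpc ttg2. The cause of this difference was not tested. WER averaged 11.1 over the 24 arrays, 9 lateral root cap genes had mean levels from 6.91 to 11.6, and 25 root hair genes from 7.09 to 12.3. Of 11 ground tissue genes 1 had a mean level above 6, and of 12 stele genes 2 did.

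GL2 was highest in the arrays labelled cpc ttg2 and lowest in wer. It stood at 7.72, 7.14 and 5.90 in the wer arrays, at 9.87, 10.26 and 9.37 in the arrays labelled cpc ttg2, and at 10.04, 9.54 and 8.27 in the cpc arrays. The remaining 5 lines had means of 8.91 ± 0.47 in try, 8.72 ± 0.17 in ttg2, 8.70 ± 0.24 in gl3, 8.53 ± 0.19 in myb23 and 8.45 ± 0.89 in egl3 (SD, n = 3 each). Every pair of neighbours in this order overlapped in its arrays, egl3 and wer included, because the egl3 array 2 stood at 7.44. The wer arrays lay wholly below the cpc arrays, with a difference of -2.36 (SE 0.47) and an adjusted p of 0.0080 in limma over all genes. Between wer and myb23 the GL2 difference of -1.61 (SE 0.47) had an adjusted p of 0.999 in limma. In that comparison 0.0187% of all genes had an adjusted p under 0.05. The myb23 arrays stood at 8.74, 8.38 and 8.46 for GL2, wholly above the wer arrays. The other 4 comparisons gave GL2 differences of 0.25 to 1.11 with adjusted p from 0.134 to 0.934 in limma.

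The 60 genes followed GL2 with r from 0.70 to 0.83 and a median of 0.74, against a median of -0.07 over the 12263 ranked genes. Spearman rho in the same arrays had a median of 0.61 and ran from 0.49 to 0.78. The arrays share their genotype within a line, so r was also taken over the 8 line means, where its median was 0.86. Over the deviations of the arrays from their line mean the median was 0.44, with 59 of 60 values above 0 and 25 above 0.5. The 12263 ranked genes had a median of 0.11, with 7260 values above 0 and 1625 above 0.5. Both parts enter the r of the choice, which therefore favours positive values in each. Within lines, GL2 and most of the 60 genes were low together in the wer 3 and egl3 2 arrays. In try they went apart. There the try 2 array had the highest GL2 level, 9.42, and the lowest median deviation of the 60 genes, -0.18. Without the arrays labelled cpc ttg2 the median r was 0.67, and without the 5 arrays that stood apart it was 0.71.

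**Figure D1:**
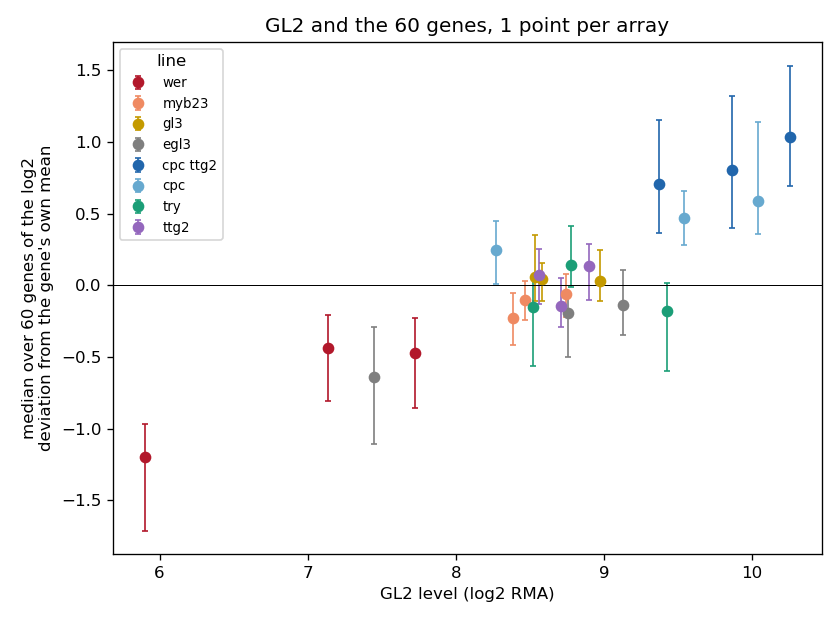
Median over the 60 genes of the log2 deviation from each gene's own mean (vertical axis, bars from the lower to the upper quartile of the genes) against the GL2 level in log2 RMA units (horizontal axis), with 1 point per array coloured by line. The wer 3 array lies lowest on both axes (GL2 5.90, genes -1.19) and the cpc ttg2 2 array highest (10.26 and 1.03), while the other arrays of 5 lines crowd between 8.38 and 9.42 on the GL2 axis with the egl3 2 array below them.

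By line, the genes were lowest in wer and highest in the arrays labelled cpc ttg2. The median gene lay 0.76 below its own mean in wer (-0.76), 0.84 above it in the arrays labelled cpc ttg2 and 0.43 above it in cpc. The other lines had median deviations of -0.14 in myb23, 0.05 in gl3, -0.30 in egl3, -0.12 in try and 0.05 in ttg2. Of the 60 genes, 53 had their lowest line mean in wer (88.3%, against 13.6% of the ranked genes), 6 in egl3 and 1 in ttg2. The highest line mean was that of the arrays labelled cpc ttg2 in 47 genes (78.3%, against 23.8% of the ranked genes), of cpc in 12 and of gl3 in 1, LYM2. The range of line means had a median of 1.67 log2 units over the 60 genes, against 1.06 over the ranked genes, and ran from 0.58 in LHT1 to 4.62 in PME17.

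Array by array, the wer 3 array carried the lowest values. The median deviations of the 60 genes in the wer arrays were -0.47, -0.44 and -1.19, and 0 of the 60 genes were above their own mean in wer 3. In the arrays labelled cpc ttg2 the median deviations were 0.81, 1.03 and 0.71, and 60, 60 and 57 genes were above their own mean. In cpc they were 0.59, 0.47 and 0.24, the lowest of these in the cpc 3 array, where GL2 was also lowest within cpc. The egl3 2 array stood at -0.64, against -0.14 and -0.20 in the other egl3 arrays, and it was low in GL2 as well.

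**Figure D2:**
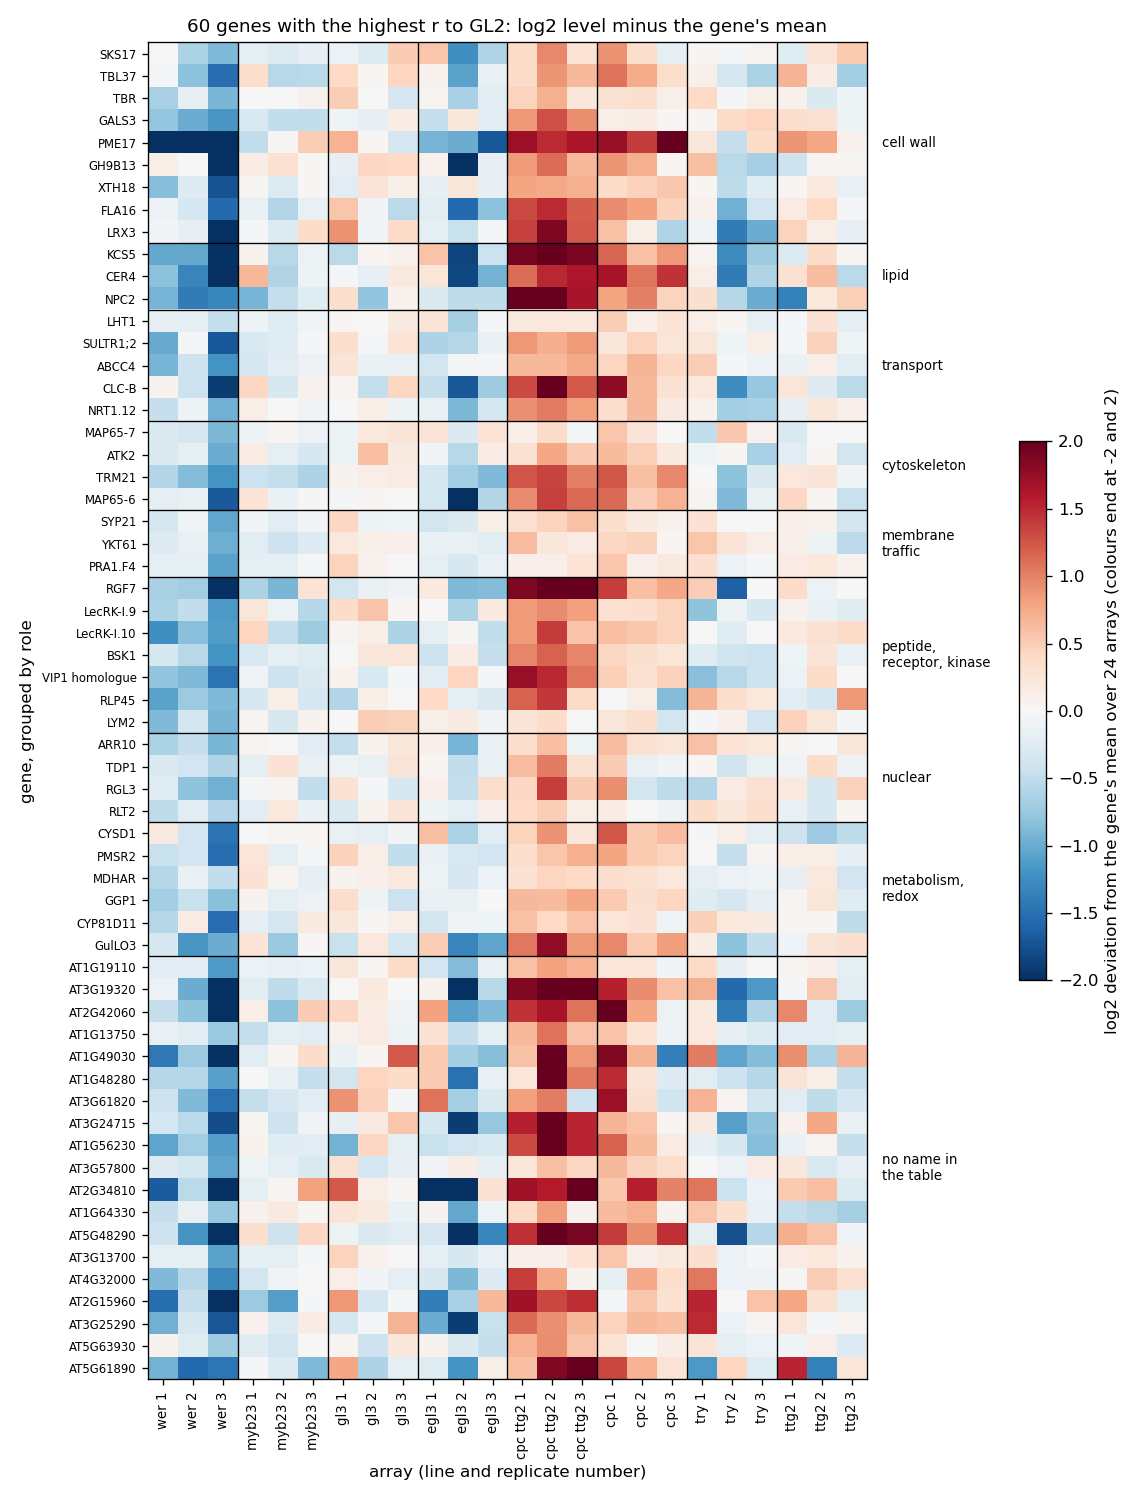
Log2 level minus the gene's mean over 24 arrays (colour, ending at -2 and 2) for the 60 genes (down the page, grouped by role) and the 24 arrays (across, 3 per line). Blue runs through wer, deepest in wer 3, and appears again in egl3 2 and try 2, while red fills the arrays labelled cpc ttg2 and, more weakly, cpc.

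Between pairs of lines, 52 of the 60 genes had all 3 wer arrays below all 3 cpc arrays, where 8.56% of all genes did so. The wer arrays lay wholly below the ttg2 arrays in 33 genes (9.71%), below gl3 in 42 (5.91%), below myb23 in 29 (7.42%), below try in 23 (11.1%) and below egl3 in 14 (9.78%). The arrays labelled cpc ttg2 lay wholly above ttg2 in 44 genes (14.6%) and above cpc in 23 (12.7%). The cpc arrays lay wholly above try in 25 genes (8.22%). These counts repeat what the rule selected and describe it in units of arrays.

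The 9 genes of the cell wall had r from 0.70 to 0.81. PME17 (AT2G45220), a pectin methylesterase, had the widest range of line means of the 60. It stood at 5.92, 6.78 and 5.19 in wer, against 10.59, 10.26 and 10.92 in cpc, and at 10.57, 10.34 and 10.49 in the arrays labelled cpc ttg2. Its means in the other lines were 8.86 ± 0.49 in myb23, 8.97 ± 0.53 in gl3, 7.64 ± 0.43 in egl3, 8.89 ± 0.44 in try and 9.43 ± 0.44 in ttg2 (SD, n = 3 each). The 3 wer arrays were therefore below all 21 others for this gene, and the difference between wer and cpc was -4.62 (SE 0.37). Within lines PME17 did not follow GL2, with an r of -0.11 over the deviations from the line means.

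SKS17 (AT5G66920), of the SKU5-similar family of multicopper oxidase-like wall proteins, followed GL2 both between and within lines, with r of 0.87 over line means and 0.79 over deviations. It stood at 9.71, 9.06 and 8.81 in wer, at 10.07, 10.65 and 9.97 in the arrays labelled cpc ttg2 and at 10.60, 10.05 and 9.52 in cpc. The wer and cpc arrays overlapped in this gene, as they did in the endoglucanase family gene GH9B13 and in LRX3. TBR (AT5G06700), named for its role in trichome cell walls, stood at 9.54, 10.02 and 9.27 in wer, at 10.62, 10.89 and 10.42 in the arrays labelled cpc ttg2 and at 10.49, 10.50 and 10.30 in cpc. Its relative TBL37 stood at 10.46, 9.68 and 8.97 in wer, at 10.88, 11.39 and 11.15 in the arrays labelled cpc ttg2 and at 11.58, 11.24 and 10.85 in cpc. Neither gene's wer arrays reached its cpc arrays.

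GALS3 (AT4G20170), a galactan synthase of pectin side chains, stood at 7.45, 7.23 and 7.06 in wer, at 9.11, 9.53 and 9.16 in the arrays labelled cpc ttg2 and at 8.36, 8.39 and 8.25 in cpc. All 3 groups were apart, and the try mean of 8.51 ± 0.22 (SD, n = 3) was above the cpc mean. XTH18, a xyloglucan endotransglucosylase/hydrolase, was among the brightest of the 60 and stood at 11.14, 11.74 and 10.25 in wer, at 12.77, 12.74 and 12.70 in the arrays labelled cpc ttg2 and at 12.35, 12.45 and 12.53 in cpc. The arabinogalactan protein gene FLA16 averaged 8.84 ± 0.77 in wer, 10.85 ± 0.14 in the arrays labelled cpc ttg2 and 10.25 ± 0.25 in cpc, but its lowest mean, 8.65 ± 0.67, was in egl3 (SD, n = 3 each). LRX3, a leucine-rich repeat extensin, averaged 7.88 ± 1.64 in wer (SD, n = 3), where array 3 stood at 5.99 and the other 2 at 8.87 and 8.77.

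The 3 lipid genes spanned wide ranges, from 2.88 to 3.43 log2 units between line means. KCS5 (AT1G25450), which elongates very-long-chain fatty acids, stood at 7.90, 7.90 and 6.94 in wer, at 10.83, 11.05 and 10.80 in the arrays labelled cpc ttg2 and at 10.09, 9.51 and 9.79 in cpc. The 3 groups did not overlap, and the other lines' means lay between 8.28 and 8.97. CER4 (AT4G33790), a fatty acyl-CoA reductase that makes primary alcohols, stood at 8.49, 7.99 and 7.05 in wer, at 10.43, 10.82 and 10.93 in the arrays labelled cpc ttg2 and at 10.96, 10.39 and 10.75 in cpc. Here cpc and the arrays labelled cpc ttg2 were level, with means of 10.73 ± 0.27 in the arrays labelled cpc ttg2 and 10.70 ± 0.29 in cpc (SD, n = 3 each). NPC2, a non-specific phospholipase C, averaged 6.15 ± 0.25 in wer, 9.58 ± 0.58 in the arrays labelled cpc ttg2 and 8.10 ± 0.28 in cpc (SD, n = 3 each), again without overlap.

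**Figure D3:**
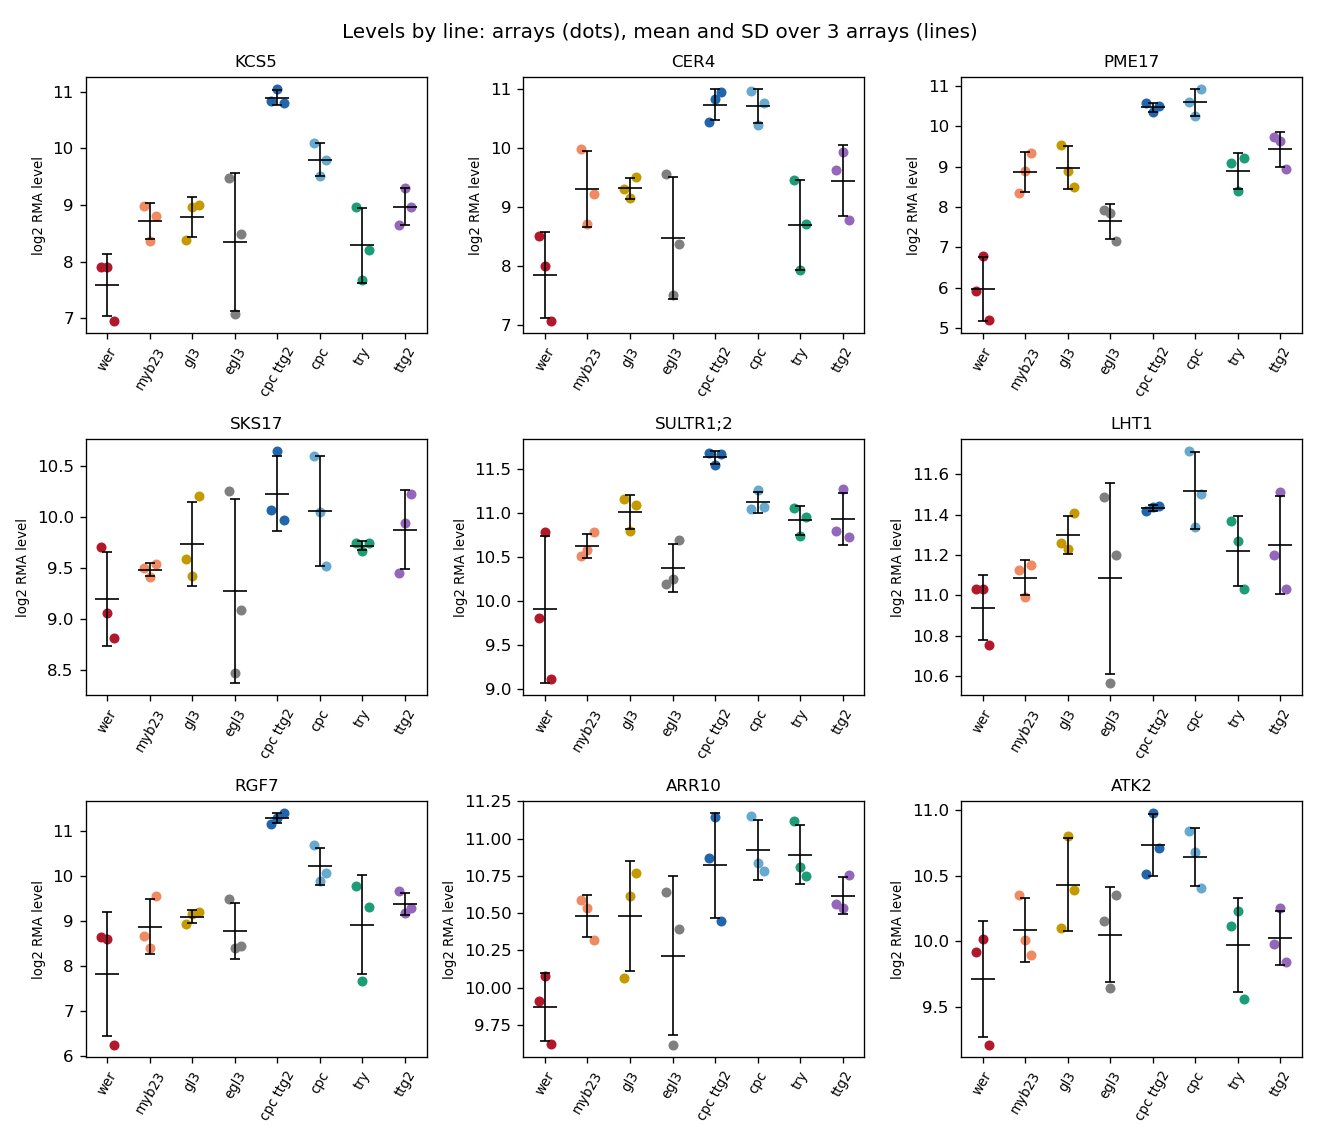
Levels in log2 RMA units (vertical axes, each panel with its own scale that does not start at 0) of 9 of the 60 genes by line, with dots for arrays and lines for the mean and SD over 3 arrays. PME17 spans from 5.19 in wer to 10.92 in cpc, whereas LHT1 spans from 10.56 in egl3 to 11.72 in cpc.

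Transport was represented by 5 genes. LHT1 (AT5G40780), an amino acid transporter, had the narrowest range of line means of the 60, yet its r of 0.77 put it in place 13. It stood at 11.03, 11.03 and 10.75 in wer, at 11.42, 11.44 and 11.44 in the arrays labelled cpc ttg2 and at 11.72, 11.34 and 11.50 in cpc. SULTR1;2 (AT1G78000), a root sulphate uptake transporter, stood at 9.81, 10.78 and 9.12 in wer, at 11.68, 11.54 and 11.67 in the arrays labelled cpc ttg2 and at 11.04, 11.25 and 11.06 in cpc, with wer 2 well above the other wer arrays and still below cpc. The ABC transporter gene ABCC4 averaged 10.14 ± 0.40 in wer, 11.68 ± 0.06 in the arrays labelled cpc ttg2 and 11.49 ± 0.15 in cpc (SD, n = 3 each), with an r of 0.97 over line means but 0.04 over deviations. The anion channel family gene CLC-B and the nitrate transporter gene NRT1.12 had line means from 5.27 to 7.76 and from 9.42 to 10.84.

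The 4 genes of the cytoskeleton are known for microtubules. MAP65-7 (AT1G14690) and MAP65-6 (AT2G01910) belong to the microtubule-associated MAP65 family, ATK2 (AT4G27180) is a kinesin, and TRM21 belongs to the TON1 recruiting motif family. MAP65-7 had the second highest r of all genes, 0.82, with 8.27, 8.22 and 7.66 in wer, 8.70, 8.93 and 8.54 in the arrays labelled cpc ttg2 and 9.12, 8.82 and 8.55 in cpc. ATK2 stood at 9.92, 10.02 and 9.20 in wer, at 10.51, 10.98 and 10.71 in the arrays labelled cpc ttg2 and at 10.84, 10.68 and 10.40 in cpc. In both genes all wer arrays lay below those of cpc and those labelled cpc ttg2, though not by much in the nearest arrays. MAP65-6 had its lowest mean in egl3, 7.61 ± 0.93 (SD, n = 3), where array 2 stood at 6.55.

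Membrane traffic was represented by 3 genes, the SNARE genes SYP21 and YKT61 and the prenylated Rab acceptor gene PRA1.F4. SYP21 averaged 10.36 ± 0.50 in wer, 11.30 ± 0.14 in the arrays labelled cpc ttg2 and 11.05 ± 0.12 in cpc (SD, n = 3 each). YKT61 averaged 9.43 ± 0.46 in wer, 10.22 ± 0.24 in the arrays labelled cpc ttg2 and 10.19 ± 0.23 in cpc, and try, at 10.21 ± 0.22, was as high (SD, n = 3 each). PRA1.F4 and its neighbour AT3G13700 hold identical values on all 24 arrays, as do 219 entries of the table with at least 1 other entry, so the 60 genes hold 59 distinct profiles and these 2 loci cannot be told apart.

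Among the 7 genes of peptides, receptors and kinases, RGF7 (AT3G02240), a secreted peptide of the root meristem growth factor family, had the widest range, 3.46. It stood at 8.66, 8.61 and 6.25 in wer, at 11.17, 11.31 and 11.41 in the arrays labelled cpc ttg2 and at 10.69, 9.90 and 10.08 in cpc, with no overlap between the 3 lines. LecRK-I.9 (AT5G60300), a receptor of extracellular ATP, averaged 7.70 ± 0.35 in wer, 9.34 ± 0.07 in the arrays labelled cpc ttg2 and 8.82 ± 0.07 in cpc (SD, n = 3 each). Its neighbour on the chromosome, LecRK-I.10, averaged 6.13 ± 0.20 in wer, 8.13 ± 0.42 in the arrays labelled cpc ttg2 and 7.71 ± 0.08 in cpc, and the 2 genes correlated with each other at 0.75 over the 24 arrays. Probes of such close relatives may share signal, and the values do not show how far. BSK1, a kinase of brassinosteroid and immune signalling, averaged 9.68 ± 0.44 in wer, 11.42 ± 0.12 in the arrays labelled cpc ttg2 and 10.70 ± 0.09 in cpc. AT3G01310, a homologue of the yeast inositol phosphate kinase Vip1, averaged 5.98 ± 0.38 in wer, 8.46 ± 0.34 in the arrays labelled cpc ttg2 and 7.44 ± 0.09 in cpc. The receptor-like protein gene RLP45 and the LysM protein gene LYM2, known in chitin responses, were the other 2, and in RLP45 the try mean of 7.95 ± 0.25 was above the cpc mean of 7.30 ± 0.54 (SD, n = 3 each).

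Of the 4 nuclear genes, ARR10 (AT4G31920), a type-B response regulator of cytokinin signalling, had the highest r of all ranked genes, 0.83. It stood at 9.91, 10.08 and 9.62 in wer, at 10.87, 11.15 and 10.44 in the arrays labelled cpc ttg2 and at 11.15, 10.84 and 10.78 in cpc, with try just as high at 11.12, 10.81 and 10.75. Its lowest array of all was egl3 2, at 9.61. RGL3, a DELLA repressor of gibberellin responses, averaged 6.44 ± 0.38 in wer, 7.88 ± 0.53 in the arrays labelled cpc ttg2 and 7.13 ± 0.79 in cpc, where the array 1 value of 8.04 was far from 6.75 and 6.60 (SD, n = 3 each). The chromatin protein gene RLT2 and the tyrosyl-DNA phosphodiesterase gene TDP1 had narrow ranges of line means, 0.78 and 1.07.

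The 6 genes of metabolism and redox all had their lowest mean in wer. CYSD1 (AT3G04940), a cysteine synthase, stood at 8.07, 7.50 and 6.40 in wer, at 8.32, 8.78 and 8.13 in the arrays labelled cpc ttg2 and at 9.12, 8.41 and 8.50 in cpc. It was almost as low in ttg2, at 7.47, 7.16 and 7.38, and it had the highest r to GL2 over deviations within lines of the 60, 0.82. GGP1, a gamma-glutamyl peptidase, and the cytochrome P450 gene CYP81D11 were the brightest of the 60, with means of 12.3 each over 24 arrays. PMSR2, a methionine sulfoxide reductase, averaged 9.75 ± 0.64 in wer, 11.07 ± 0.18 in the arrays labelled cpc ttg2 and 11.11 ± 0.18 in cpc (SD, n = 3 each). MDHAR, which recycles ascorbate, and GulLO3, of the gulonolactone oxidase family, had ranges of line means of 0.77 and 2.06.

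The remaining 19 genes had no name in the gene table used here and are given by locus. Their r ran from 0.70 to 0.80, 16 had their lowest mean in wer and 15 their highest in the arrays labelled cpc ttg2. AT1G19110, in place 4, stood at 10.17, 10.16 and 9.25 in wer, at 10.96, 11.18 and 11.07 in the arrays labelled cpc ttg2 and at 10.62, 10.62 and 10.32 in cpc. AT3G19320, in place 5, stood at 8.37, 7.50 and 5.24 in wer, at 10.34, 10.82 and 10.68 in the arrays labelled cpc ttg2 and at 10.04, 9.44 and 9.08 in cpc. Neither overlapped between these lines. AT2G34810 had the widest range of the 19, 3.93, with 7.40, 8.52 and 4.83 in wer, against 9.28 ± 0.51 in myb23 (SD, n = 3), and it was also low in egl3 at 6.65 and 5.72 in 2 arrays but not in the other, at 9.35. AT1G64330 was the only gene of the 60 with its lowest mean in ttg2, 7.98 ± 0.10, against 8.98 ± 0.38 in the arrays labelled cpc ttg2 (SD, n = 3 each).

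Just inside the last place were LRX3 (0.70), AT5G61890 (0.70) and LYM2 (0.70), and just outside it MSL6 (0.69), WIH1 (0.69) and SERAT2;2 (0.69). The margin was thus under 0.01 in r. LYM2 differed from most others in that its lines apart from wer were level, with means from 10.13 to 10.54. The 60 genes lay on all 5 chromosomes, with 9, 10, 15, 10 and 16 genes on chromosomes 1 to 5, and held 2 pairs of neighbouring loci, named above.

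The 60 genes also followed each other. All 1770 pairs had r above 0, with a median of 0.69 and a lowest value of 0.30, and the mean r between them was 0.68, against 0.03 between ranked genes. After each gene was scaled, the first principal component held 68.7% of their variance and the second 5.25%. Genes picked for likeness to 1 profile resemble each other by that choice, so these values describe how tight the set was.

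Relatives of the 60 genes differed widely in their r to GL2. Of 6 MAP65 genes above the floor, 2 were among the 60, and the others had r from -0.39 to 0.27. ARR10 was alone among 4 type-B response regulators above the floor, the others having r from -0.23 to 0.06, and RGF7 was alone among 5 RGF genes, the others having r from -0.10 to 0.19. KCS5 was alone among 6 ketoacyl-CoA synthase genes, with others from -0.47 to 0.38. Beside XTH18, at 0.73, the other 16 XTH genes above the floor ran both ways, from 0.52 in XTH30 to -0.54 in XTH26. The 3 galactan synthase genes were all positive, with 0.75 in GALS3, 0.68 in GALS1 and 0.54 in GALS2. Relatives of TBR also came near, since TBL38 had r of 0.69, TBL41 0.69 and TBL36 0.65, while the other 16 outside the 60 ran from -0.41 to 0.38. Of the DELLA genes, RGL3 was followed by RGA1 at 0.57 and RGL1 at 0.33, and GAI and RGL2 stood at -0.08 and -0.01.

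The patterning genes that the rule left out did not all follow GL2. MYB23 had r of 0.77 and would have held place 13, although its own mutant line is among the 8. MYB23 averaged 6.77 ± 0.86 in wer, 7.40 ± 0.16 in myb23, 9.28 ± 0.38 in the arrays labelled cpc ttg2 and 7.73 ± 0.69 in cpc (SD, n = 3 each), so unlike GL2 it was not high in cpc. ETC1 (r of 0.59), TTG2 (0.56) and TRY (0.46) would have held places 281, 382 and 858, CPC (0.12) place 3838, and MYC1 (-0.46) place 11537. MYB23, TTG2, TRY and CPC are each labelled as mutated in at least 1 of the lines. MYC1, a bHLH gene, averaged 8.77 ± 0.33 in wer, 4.92 ± 1.03 in the arrays labelled cpc ttg2 and 5.98 ± 0.91 in cpc, so it was highest where GL2 was lowest (SD, n = 3 each).

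In the longer list of epidermal patterning genes, 14 besides GL2 were measured, with 10 values of r above 0 and 4 below and a median of 0.16. Below 0 were WER (-0.16), EGL3 (-0.41), TTG1 (-0.43) and MYC1, and above 0 were JKD (0.48), SCM (0.26), GL1 (0.18), ETC2 (0.13) and QKY (0.02) beside the 5 already given. The median over the 12263 ranked genes was -0.07, and the list includes genes below the floor. Among 15 other members of the HD-ZIP IV family, to which GL2 belongs, r ran from -0.33 in HDG1 to 0.34 in HDG8, with 10 above 0 and 5 below, and only 4 of these 15 had a mean level above 6.

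Genes of root hair growth mostly had r to GL2 below 0 over the 24 arrays and above 0 within lines. All 4 measured bHLH genes of root hair growth had 24-array r below 0, with -0.57 in RHD6, -0.34 in RSL4, -0.22 in LRL3 and -0.15 in LRL1. RHD6, which starts hair growth, averaged 10.53 in wer and 8.20 in cpc. Of 25 other root hair genes, 24 had r below 0, with a median of -0.39, and LRX2 stood at 0.32. Over deviations from the line means, 23 of these 25 genes had r above 0, with a median of 0.34, as had RHD6 (0.16), RSL4 (0.38) and LRL3 (0.52), while LRL1 stood at -0.03. Their opposition to GL2 thus lay between the lines and not within them. The 60 genes had mostly positive values in both, which their choice by r over the same arrays favours. The lowest r of all ranked genes was -0.80, in CID10 (AT3G49390), which averaged 8.33 ± 0.16 in wer, 7.50 ± 0.27 in the arrays labelled cpc ttg2 and 7.75 ± 0.10 in cpc (SD, n = 3 each). Close to it were AAPT2, an aminoalcohol phosphotransferase gene of phospholipid synthesis, and AT3G20720, both at -0.79.

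Markers of other cells moved with the 60 genes across arrays, and their part in the likeness was not tested. The median deviation of the 60 genes correlated with the mean of the 9 lateral root cap genes at 0.49 over 24 arrays and 0.50 over the 21 without those labelled cpc ttg2. The line means of that list ran from 9.29 in wer through 9.97 in the arrays labelled cpc ttg2 and 10.07 in cpc to 10.27 in ttg2, so its order differed from that of the 60 genes. Of the 9, EXI1 (0.63) and DMP4 (0.55) followed GL2 most closely, and the defining factors SMB, BRN1, BRN2 and FEZ had r from -0.10 to 0.18. Within lines 2 of the 9 had r to GL2 above 0. The mean of the root hair list correlated with the 60 genes at -0.45 over 24 arrays and -0.28 over 21, and stood at 10.88 in wer, 9.23 in the arrays labelled cpc ttg2 and 9.62 in cpc. The ground tissue list did so at 0.57 and 0.25 and the stele list at 0.49 and -0.01, with line means of the ground tissue list from 4.08 in ttg2 to 5.33 in the arrays labelled cpc ttg2. The array median correlated with the 60 genes at -0.55 over 24 arrays and -0.12 over 21. The difference between 3' and 5' control probes did so at 0.36 and -0.0034 for actin and at 0.41 and 0.25 for GAPDH. For the mean of mitochondrial genes the values were 0.09 and -0.32, and for the 25S rRNA control 0.15 and -0.29.

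Which genes made up the 60 depended on single lines and arrays. Leaving out 1 array kept between 33 and 60 of the 60 genes, with a median of 55.5, and the lowest count came without wer 3 and the next, 39, without egl3 2. Leaving out a whole line kept 55 genes without myb23, 53 without ttg2, 49 without gl3, 44 without cpc, 38 each without try, egl3 or the arrays labelled cpc ttg2, and 14 without wer. In the 21 arrays without wer, which also entered the choice, the 60 genes had a median r of 0.63, against -0.09 over the ranked genes. In all 32 such runs 10 genes were kept, namely ARR10, SKS17, KCS5, ATK2, LHT1, AT1G19110, AT3G19320, AT1G13750, AT1G48280 and AT3G24715. At the other end, LRX3, LYM2, AT5G61890 and AT5G63930 were chosen in fewer than 12 of the 24 runs without 1 array.

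**Figure D4:**
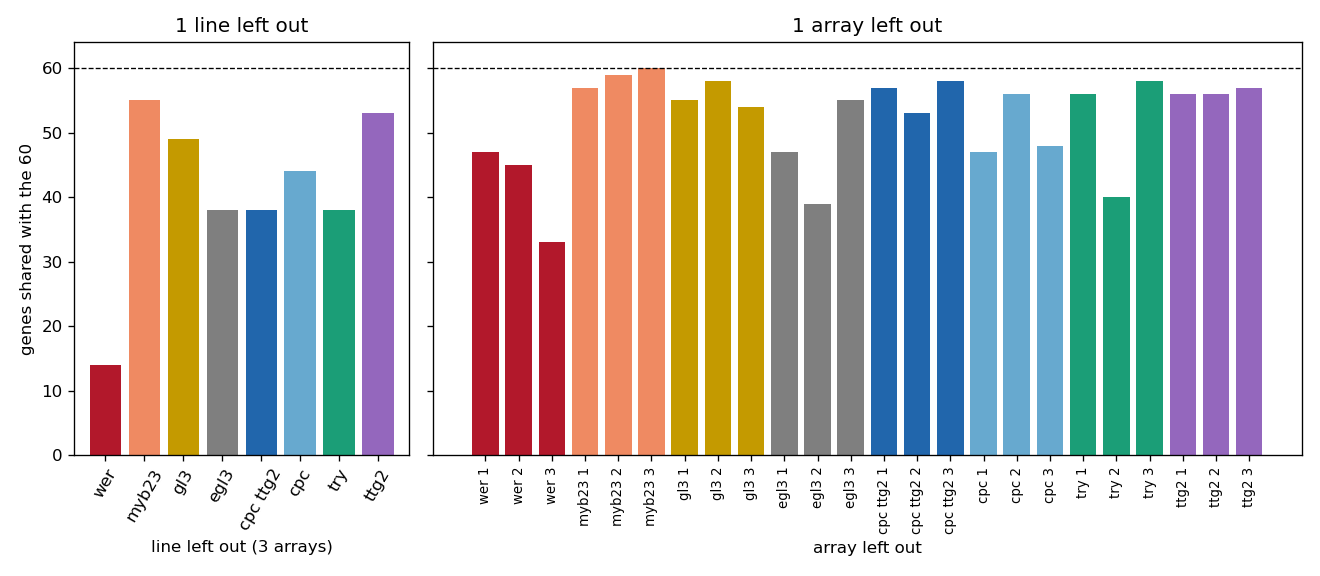
Number of genes shared with the 60 (vertical axis, dashed line at 60) when the rule was applied without 1 line (left panel) or without 1 array (right panel). Without the line wer 14 genes are shared, and without the array wer 3 33 are.

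With the arrays of 1 replicate number held back, the 60 genes chosen in the remaining 16 arrays could be read in 8 arrays that had no part in the choice. Chosen without number 1, the genes had a median r of 0.52 in the held arrays, against 0.00 over the ranked genes, with 60 of 60 above 0. Chosen without number 2 they had a median of 0.46, against -0.11, with 52 above 0, and without number 3 a median of 0.37, against -0.12, with 46 above 0. Of the 60 genes of each list 33, 28 and 23 were above 0.5 in the held arrays, while 11.4%, 11.3% and 13.01% of the ranked genes were. These 3 lists shared 31, 27 and 18 genes with the 60. The held arrays are of the same 8 lines, so the shared genotypes enter both sides.

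For a test between lines, 60 genes were chosen by the rule in the 18 arrays of the other 6 lines and then read in the comparison left out, with limma and p-values adjusted over all 21440 genes. By label, the cpc ttg2 arrays share cpc-1 with cpc and ttg2-1 with ttg2. Where any of these lines was compared, a line sharing an allele with it stayed in the choice. The lists of those comparisons are therefore not independent of the genotypes compared. Genes called in these lists that are not among the 60 are named because they were called, after their values were seen. Between wer and cpc the list shared 6 genes with the 60, and 3 genes fell and 1 rose in wer, where 3.05% of all genes (1.60% higher and 1.46% lower) and 4.26% of the ranked genes were called. KCS5 fell, with a difference of -2.21 (SE 0.44, adjusted p = 0.0080 in limma). AT5G51930 stood at 7.04, 6.25 and 6.05 in wer, against 8.70, 8.56 and 8.99 in cpc, a difference of -2.31 (SE 0.43, adjusted p = 0.0058 in limma). AT5G38790 stood at 7.09, 6.32 and 7.68 in wer, against 8.79, 8.66 and 9.11 in cpc, a difference of -1.82 (SE 0.39, adjusted p = 0.0126 in limma). CBL2, a calcium sensor gene, rose, at 8.02, 7.61 and 7.93 in wer, against 7.17, 6.85 and 6.36 in cpc. Of the 60 genes in this list 44 were lower in wer, the median difference was -0.30, and the count of 4 calls was 2 without the cpc 3 array, 1 in a fit of the 6 arrays alone and 0 without the arrays that stood apart. The other runs without 1 array gave 3 to 5 calls, a replicate block gave 5, and testing only genes above the floor gave 7. With 4 calls among 60 genes, the list was close to the 4.26% of the ranked genes called after adjustment. Before adjustment it was not, since 23 of its genes had a p under 0.05 in limma, against 16.4% of all genes. The median difference over the ranked genes was 0.10. Among the 60 genes of the full choice 29 were called lower in wer and 0 higher, a count that the choice itself favours. GL2 differed by -2.36 in the same arrays.

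Between cpc and try the list chosen in the other 6 lines shared 36 genes with the 60, and 12 of its 60 genes rose in cpc and 0 fell, where 2.35% of all genes (1.50% higher and 0.849% lower) and 3.09% of the ranked genes were called. The median difference was 1.01, and 59 of 60 genes were higher in cpc, while GL2 itself differed by 0.38 (SE 0.47, adjusted p = 0.696 in limma). The arrays labelled cpc ttg2, which carry cpc-1 by label and were highest in GL2, took part in choosing this list. A shared genotype may thus enter both sides, and its part was not tested. Of the 12, 5 are among the 60, namely CER4, PME17, TRM21, AT3G01310 and AT5G48290. CER4 stood at 10.96, 10.39 and 10.75 in cpc, against 9.44, 7.92 and 8.71 in try, a difference of 2.01 (SE 0.48, adjusted p = 0.026 in limma). PME17 stood at 10.59, 10.26 and 10.92 in cpc, against 9.08, 8.39 and 9.22 in try, a difference of 1.70 (SE 0.37, adjusted p = 0.0162 in limma). TRM21 stood at 8.97, 8.34 and 8.70 in cpc, against 7.75, 6.91 and 7.45 in try, a difference of 1.30 (SE 0.22, adjusted p = 0.0020 in limma). All 12 were apart in their arrays, which being called between the same arrays favours.

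The other 7 genes that rose in cpc against try are not among the 60. BGAL4, a beta-galactosidase, stood at 10.89, 10.78 and 11.55 in cpc, against 9.36, 8.52 and 9.21 in try, a difference of 2.05 (SE 0.33, adjusted p = 0.0010 in limma). MAN1, an endo-beta-mannanase, stood at 10.44, 10.20 and 10.28 in cpc, against 8.94, 7.15 and 7.51 in try. The cellulose synthase-like gene CSLB05 (ATCSLB05) averaged 10.42 ± 0.13 in cpc and 8.30 ± 0.85 in try, and TBL41, a relative of TBR, 10.62 ± 0.12 in cpc and 8.87 ± 0.83 in try (SD, n = 3 each). The remaining 3 were EXL4, ERF53, a gene of the ERF transcription factor family, and AT4G25620. The try 2 array was the lowest of its line in 11 of the 12, and the count of 12 was 2 without try 2, 3 without cpc 3, 6 each without cpc 1 or try 3, and 19 without try 1, and it was 3 both in a fit of the 6 arrays alone and without the arrays that stood apart.

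**Figure D5:**
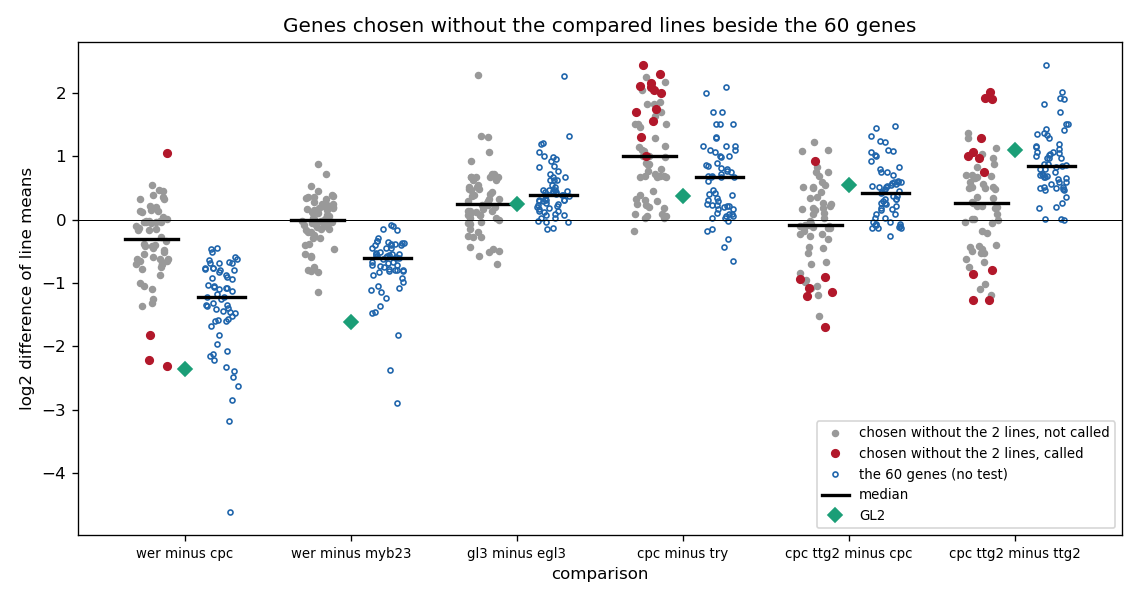
Log2 difference of line means (vertical axis) in 6 comparisons for 60 genes chosen by the rule without both compared lines (filled dots, red where called at an adjusted p under 0.05 in limma) beside the 60 genes of the full choice (open circles, no test), with bars for medians and diamonds for GL2. The filled dots of cpc minus try have a median of 1.01 and 12 called genes, all higher in cpc, while those of wer minus myb23 centre on 0 (median -0.0044) with none called.

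The arrays labelled cpc ttg2 were set against cpc and against ttg2. Against cpc, 1 gene of the list rose and 6 fell, where 9.10% of all genes (3.79% higher and 5.30% lower) and 12.3% of the ranked genes were called, so the list was close to its background. The gene that rose was GALS3, with a difference of 0.93 (SE 0.20, adjusted p = 0.0083 in limma), and those that fell were SK13, FZR3, BUB3.1, AT3G02120, AT4G30020 and AT1G34100, none of which is among the 60. FZR3 and BUB3.1 are known for cell cycle control. FZR3 stood at 7.28, 7.59 and 7.62 in the arrays labelled cpc ttg2, against 8.89, 8.49 and 8.34 in cpc. The median difference of the list was -0.09 and 34 of 60 genes were lower. In the full choice 48 of 60 stood above cpc, 6 of them called, counts that the choice itself favours. The count of 7 was 1 without cpc 1, 3 without cpc ttg2 2, 4 each without cpc ttg2 3 or cpc 2, and 12 without cpc 3, and it was 0 in a fit of the 6 arrays alone.

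Against ttg2, 8 genes of the list rose in the arrays labelled cpc ttg2 and 4 fell, where 10.2% of all genes (4.03% higher and 6.16% lower) and 14.2% of the ranked genes were called. The list shared 33 genes with the 60, and its median difference was 0.27, with 38 genes higher and 22 lower. Of its genes 29 had an unadjusted p under 0.05 in limma, against 27.0% of all genes. Of the 8 that rose 7 are among the 60, namely KCS5, RGF7, ABCC4, CYSD1, AT3G19320, AT1G64330 and AT1G13750. RGF7 stood at 11.17, 11.31 and 11.41 in the arrays labelled cpc ttg2, against 9.67, 9.19 and 9.31 in ttg2, a difference of 1.91 (SE 0.54, adjusted p = 0.0319 in limma). KCS5 differed by 1.93 (SE 0.44, adjusted p = 0.0104 in limma) and ABCC4 by 0.76 (SE 0.21, adjusted p = 0.0267 in limma). The 4 that fell were FZR3, CYCD3;1, a cyclin gene, KAO2, of gibberellin synthesis, and AT4G30020. The full choice had 19 called genes, all of them above ttg2, a count and direction that the choice itself favours. The count of 12 was 5 each without cpc ttg2 2 or ttg2 1, 6 without cpc ttg2 3 and 7 without ttg2 3.

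In the remaining comparisons no gene of the lists was called. Between wer and myb23 the list shared 11 genes with the 60, its median difference was -0.0044 with 30 genes higher and 30 lower, and 2 genes had an unadjusted p under 0.05 in limma, where 0.0187% of all genes (0.00466% higher and 0.0140% lower) and 0.0163% of the ranked genes were called after adjustment and 3.54% had such an unadjusted p. In the same arrays GL2 was 1.61 lower in wer than in myb23 (-1.61). The 60 genes of the full choice had a median difference of -0.61, with 1 called, values that the choice itself favours. Between gl3 and egl3 the list shared 30 genes, its median difference was 0.25 with 44 genes higher in gl3, and 9 genes had an unadjusted p under 0.05 in limma, where 0.658% of all genes (0.485% higher and 0.173% lower) were called after adjustment and 9.31% had such an unadjusted p. The 60 genes of the full choice were higher in gl3 than in egl3 in 55 cases, with a median of 0.40 and 0 called (the list gave 1 call without egl3 3), and in 15 of them the gl3 arrays lay wholly above the egl3 arrays (5.53% of all genes).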

How the data were processed

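The authors deposited 1 table of log2 values for 24 arrays, and the submitters' processing notes name RMA (robust multi-array average) as the method. Which array, probe set definition and program version were used is not given in the sources used here. RMA brings the arrays' distributions together and compresses differences between dim genes. Detection calls were not used, so no level is read as presence, and the number of arrays limits the precision. Of 21504 entries 64 were controls, and 21222 of 21440 loci matched the RefSeq gene table of TAIR10.1, used for names and neighbours.

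The 60 genes, the gene lists and the comparisons were chosen with earlier results of these data known, and roles and families were assigned after the genes were seen. Differences come from limma 3.58.1 in R 4.3.3 (lmFit and eBayes, 1 mean per line over 24 arrays, 2-sided, adjusted by Benjamini-Hochberg over 21440 genes, called under 0.05), which was tested on simulated data. Replicates are labelled biological, with no note of separate cultures, so a p-value reflects how far these arrays differ, which may be technical. Named genes were GL2, the 6 left out, the 20 with the highest r, members with a known role, those around the last place, those with the widest and narrowest range, and genes of the patterning, HD-ZIP IV and hair bHLH lists. Samples of equal replicate number deviated together at every number in wer against cpc only (r of 0.22 to 0.44). This comparison gave 5 calls with a replicate block, against 4 without. The other comparisons each held a negative r, though single values reached 0.58 (cpc ttg2 against cpc, number 3). The planned search of promoters for motifs was not made, because no promoter sequence was used here.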

Additional observations from a re-analysis of the deposited data

How the results depend on the processing

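The r to GL2 of the 49 named genes stayed between 0.48 and 0.89 when 1 array was left out, with Spearman rho, with centred arrays, without the arrays labelled cpc ttg2 and without the 5 arrays that stood apart. It was lower without the whole line wer (from 0.38 over the 60 genes), and within lines PME17 stood at -0.11. The make-up of the 60 genes moved more. They shared 31 genes with the choice by Spearman rho, 7 with r over line means and 1 with r over deviations within lines. Leaving out a line kept 14 (wer), 38 (egl3), 38 (cpc ttg2) and 38 (try) genes, leaving out 1 array 33 to 60. In runs added after the data were seen, 34 were kept without the 5 arrays that stood apart, and 31, 27 and 18 without 1 replicate number.

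Calls among genes chosen without the compared lines also moved. Some of these runs used fewer arrays or tested fewer genes, and the cause of the changes was not tested. A fit of only 6 arrays called 1 gene in wer against cpc (main 4), 3 in cpc against try (main 12) and 0 in cpc ttg2 against cpc (main 7). Testing only genes above the floor called 7 in wer against cpc, and choosing by Spearman rho 11 in cpc ttg2 against cpc. Counting the 60 genes themselves gave 29 in wer against cpc, 1 in wer against myb23, 5 in cpc against try and 19 in cpc ttg2 against ttg2, counts that the choice itself favours. Without the arrays that stood apart, added later, wer against cpc gave 0, gl3 against egl3 1 and cpc against try 3 calls, and the comparisons of cpc ttg2 could not be run. Leaving out 1 array gave 2 to 5, 0 to 0, 0 to 1, 2 to 19, 1 to 12 and 5 to 9 calls in wer against cpc, wer against myb23, gl3 against egl3, cpc against try, cpc ttg2 against cpc and cpc ttg2 against ttg2. With replicate number as a block, only wer against cpc met the check for pairing, with 5 calls. In the other comparisons, in the same order, the replicate block gave 0, 0, 15, 6 and 13 calls. The planned motif search was not run.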
